A study of Mus musculus with 117 samples.

Results

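The regions described here are the places on mouse chromatin that carried SUMO in embryonic stem (ES) cells and not in fibroblasts, and that lay under an active histone mark in ES cells. They were found by merging the SUMO-1 and SUMO-2 peaks of ES cells into 14515 regions and keeping those with no SUMO-1 or SUMO-2 peak in mouse embryonic fibroblasts (MEF), with an H3K27ac or H3K4me3 peak in ES cells, and with no H3K9me3 peak in ES cells, each by an overlap of at least 1 bp. A total of 2144 regions, or 14.8% of the 14515, met the rule. They are called members below. Members were chosen by the presence or absence of peaks in these 7 lists, so their presence in ES cells and the absence of SUMO in MEF are description and were not tested.

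The series holds 117 samples, of which 78 are chromatin immunoprecipitation (ChIP-seq) samples, 28 are RNA-seq libraries and 11 are ATAC-seq samples not analysed here. The wild-type MEF came from E13.5 embryos and were at passage 1, and the wild-type ES cells were at passages 15 to 20. The D4 cells were E13.5 MEF at passage 1 in which Sox2, Klf4, Myc and Oct4 (together OKSM) had been expressed for 4 days to start reprogramming, and they carried either a control hairpin RNA (shCtrl) or a hairpin against Ubc9 (shUbc9). H3K9me3 was also mapped in ES cells treated with a control small interfering RNA (siCtrl) or with one against Ubc9 (siUbc9). No SUMO peak list at D4 was used here, and the OKSM cassette of the D4 cells was expressed in both hairpin groups.

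SUMO proteins are small ubiquitin-like modifiers that are joined to lysines of other proteins, many of them transcription factors and chromatin proteins. SUMO-1 is one family member and SUMO-2 another, and Ubc9 is the single conjugating enzyme that both depend on. H3K27ac marks active enhancers and promoters, H3K4me3 marks promoters, H3K4me1 marks enhancers, H3K27me3 is laid down by Polycomb repressive complexes, and H3K9me3 marks heterochromatin. Oct4, Sox2 and Klf4 bind enhancers and promoters of the pluripotency network and are used to convert fibroblasts to pluripotent cells.

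The authors deposited 1 peak list for each antibody and condition, made from both replicates, so no spread between replicates could be had for any share of members. Shares are given with a Wilson 95% interval, which covers counting error only, and regions are not replicates of a condition. Differences between lists were therefore not tested. No annotation of the mm9 build was used here, so no region is tied to a gene and no sequence is shown. The states were checked on RNA from separate libraries. All 10 pluripotent markers were higher in each ES siCtrl library than in any MEF shCtrl library, with a summed level of 3730 to 4110 CPM (read counts scaled to library size) against 1.22 to 1.39, and all 10 fibroblast markers were lower, at 58.7 to 74.5 against 24100 to 29300 CPM (n = 3 each). The summed levels of the other lists in ES and in MEF were 25 to 26 and 3.28 to 5.15 CPM for trophoblast, 17.5 to 20.8 and 50.8 to 66.8 for primitive endoderm, 44.9 to 51 and 37.8 to 51.9 for macrophages, and 620 to 643 and 11.7 to 13 for epithelium. Of the 5 macrophage markers, 2 were higher in ES cells (Cd68 at a mean of 42.1 against 7.94 CPM, and Itgam) and 3 were lower (Adgre1, Csf1r and Ptprc, with Adgre1 at 0).

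Members with both SUMO proteins had them with summits at nearly the same base. Of the 2144, 1275 (59.5%, 57.4% to 61.5%) held a SUMO-1 and a SUMO-2 peak, 608 held SUMO-2 alone and 261 SUMO-1 alone. The share with both was 67.3% over all ES SUMO regions, 81.4% at those found only in ES cells with H3K9me3, 72% at the active regions with SUMO in both cell types and 62.3% at regions found only in ES cells with none of the marks, so that members had the lowest share of these classes. In members with both, the SUMO-1 and SUMO-2 summits were a median of 16.0 bp apart, and 93.1% of pairs lay within 100 bp. The share with both proteins was 59.2% of the 959 members that carried H3K27ac without H3K4me3 in ES cells, 60.1% of the 832 that carried H3K4me3 without H3K27ac, and 58.6% of the 353 that carried both marks. Members were 282 to 3726 bp wide with a median of 760.0 bp.

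The SUMO peaks of members were of middling rank within their lists. Ranks are percentiles of the authors' peak score within 1 list, so that 50 is the middle. The median rank was 40.6 for SUMO-1 and 40.6 for SUMO-2, beside 68.3 and 68.0 at the 3001 SUMO regions found only in ES cells that carried H3K9me3 there. At the 418 active regions with SUMO in both cell types the median ranks were 57.3 and 70.7. At the 7925 regions found only in ES cells with none of the marks they were 43.5 and 42.9, near those of members. The authors' fold enrichment of member peaks had a median of 6.21 for SUMO-1 and 6.58 for SUMO-2, beside 8.84 and 9.10 at the H3K9me3 regions. It was 5.60 and 6.60 at the 418 regions, and 6.93 and 7.21 at the 7925.

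The 5 members with the highest mean rank of their 2 SUMO peaks show how different the strongest sites were. The region chr8:42467227-42468861 (mm9) had a fold enrichment of 21.58 for SUMO-1 and 28.64 for SUMO-2, with H3K27ac and H3K4me1 in ES cells and no peak of any list in MEF or at D4. The regions chr3:59910078-59911317 (29.50 and 32.90) and chr6:3506983-3508186 (23.75 and 28.72) held H3K27ac in ES cells alone. At chr12:111962148-111963752 (17.50 and 17.37) the further peak was H3K9me3 at D4 shUbc9, of rank 9.05 in its list. The fifth, chr14:12384373-12385360 (19.49 and 20.16), stood apart. It held H3K4me3 and no H3K27ac in ES cells, both active marks in MEF and at D4, and Oct4, Sox2 and Klf4 in both D4 conditions. Its Sox2 peak ranked at 97.2 in the shCtrl list and 98.4 in the shUbc9 list, while its Klf4 peaks ranked at 14.9 and 21.8.

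The label of active chromatin held unevenly across members. Where H3K27ac chose a member, its peak was of middle to high rank, with a median of 61.6 over 1312 members. Where H3K4me3 was the only active mark, its peak was of low rank, with a median of 24.2 over 832 members, and 731 of these peaks lay in the lower 50% of the ES list. The H3K4me3 peaks of those 731 members were a median of 706 bp wide, beside 690 bp for the SUMO regions themselves, and their summits lay a median of 52.0 bp from the SUMO summit. In the 101 H3K4me3-only members with a higher-ranked peak, the H3K4me3 peak was 1737 bp wide and its summit 495 bp away. The split at the middle rank was chosen after these values were seen. Over all list peaks, the H3K4me3 peaks that held a member had a median rank of 30.4 and width of 949.5 bp, beside 50.7 and 1346 bp for those with no SUMO peak in ES cells.

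Distances to the other summits separated the marks by where they lay around the SUMO summit. The nearest H3K4me3 summit in ES cells was a median of 77.5 bp away in H3K4me3-only members and 556 bp away in members with both active marks. The nearest H3K27ac summit lay at a median of 420.5 bp, that of H3K4me1 at 540 bp and that of H3K27me3 at 681 bp. In members that held a factor peak at D4 shCtrl, the nearest summit of Oct4 lay at a median of 209 bp, that of Sox2 at 240 bp and that of Klf4 at 233 bp. At the active regions with SUMO in both cell types these distances were 70, 108 and 104.5 bp, measured in 238, 221 and 256 regions.

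**Figure D1:**
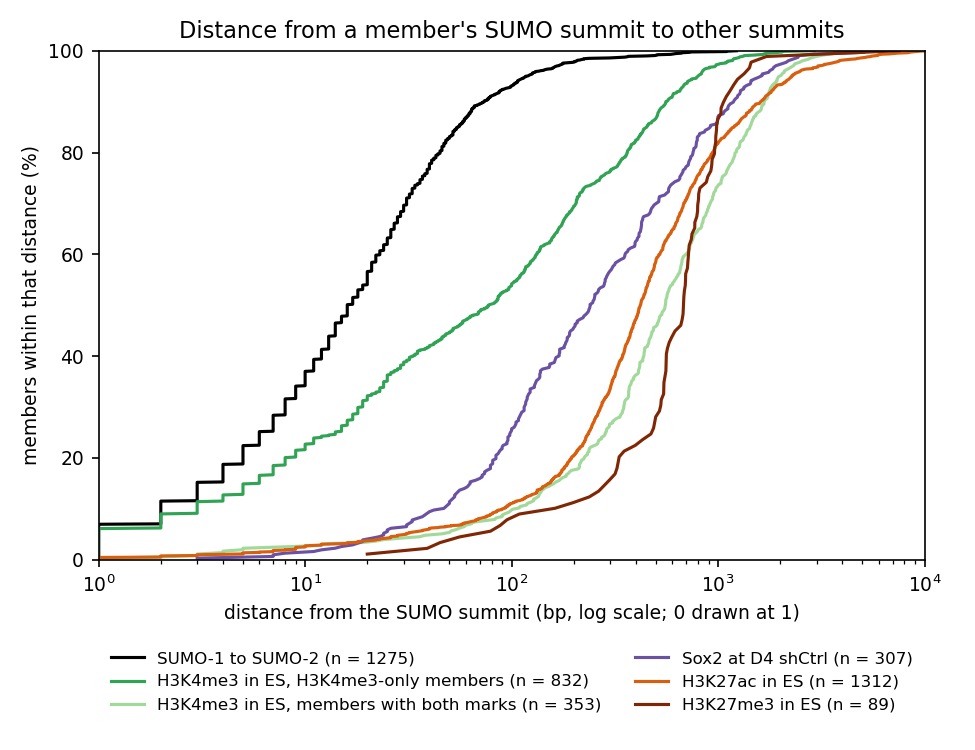
Cumulative share of members (y axis, %) within a given distance (x axis, bp, log scale, with 0 drawn at 1) of the SUMO summit, 1 line per kind of summit with its number of members. SUMO-1 and SUMO-2 summits were closest (median 16.0 bp), H3K4me3 of H3K4me3-only members came next (77.5 bp), and H3K27me3 lay farthest (681 bp).

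Few members carried an active mark in the fibroblasts. In MEF, H3K27ac lay on 202 members (9.42%, 8.26% to 10.7%) and H3K4me3 on 226 (10.5%, 9.31% to 11.9%), where all 14515 ES SUMO regions gave 4.71% and 4.0%. At D4, H3K27ac lay on 217 members with shCtrl (10.1%, background 4.24%) and 258 with shUbc9 (12.0%, background 4.95%), and H3K4me3 on 277 (12.9%, background 4.62%) and 313 (14.6%, background 5.08%). Either mark was present at 275 members (12.8%, 11.5% to 14.3%), beside 5.97% of all 14515. At D4 shCtrl either mark was at 315 members (14.7%, 13.3% to 16.3%, background 5.76%), and at D4 shUbc9 at 384 (17.9%, 16.3% to 19.6%, background 6.77%). The 1869 members inactive in MEF thus made up the large majority (87.2%), beside 94.0% of all ES SUMO regions. Neither mark was listed in MEF or in either D4 condition at 1727 members (80.6%), a share not taken over all regions. The lists differed in their lowest score, which for H3K4me3 was 220 in ES cells, 530 in MEF and 640 and 340 at D4 shCtrl and shUbc9. With all H3K27ac lists cut at their highest lowest score, and all H3K4me3 lists likewise, 1299 members were left, of which 18.2%, 22.6% and 25.7% were active in MEF, at D4 shCtrl and at D4 shUbc9.

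The other marks showed different courses. H3K4me1 was at 51 members in MEF (background 1.69%), 50 at D4 shCtrl (background 1.1%), 80 at D4 shUbc9 (background 1.44%) and 440 in ES cells (20.5%, 18.9% to 22.3%, background 4.88%). H3K27me3 was at 74 members in MEF (background 1.01%), 126 at D4 shCtrl (background 1.32%), 121 at D4 shUbc9 (background 1.26%) and 89 in ES cells (4.15%, 3.39% to 5.08%, background 1.27%). H3K9me3 was at 24 members in MEF, 22 at D4 shCtrl and 30 at D4 shUbc9, or 1.12%, 1.03% and 1.40%, where all ES SUMO regions gave 9.88%, 7.44% and 9.81%. The rule had removed regions with H3K9me3 in ES cells, so a low share of this mark elsewhere is not independent of it. No peak of any mark or factor in MEF or at D4 touched 1427 members (66.6%). This share was not taken over all ES SUMO regions, so it is not shown to be particular to members.

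**Figure D2:**
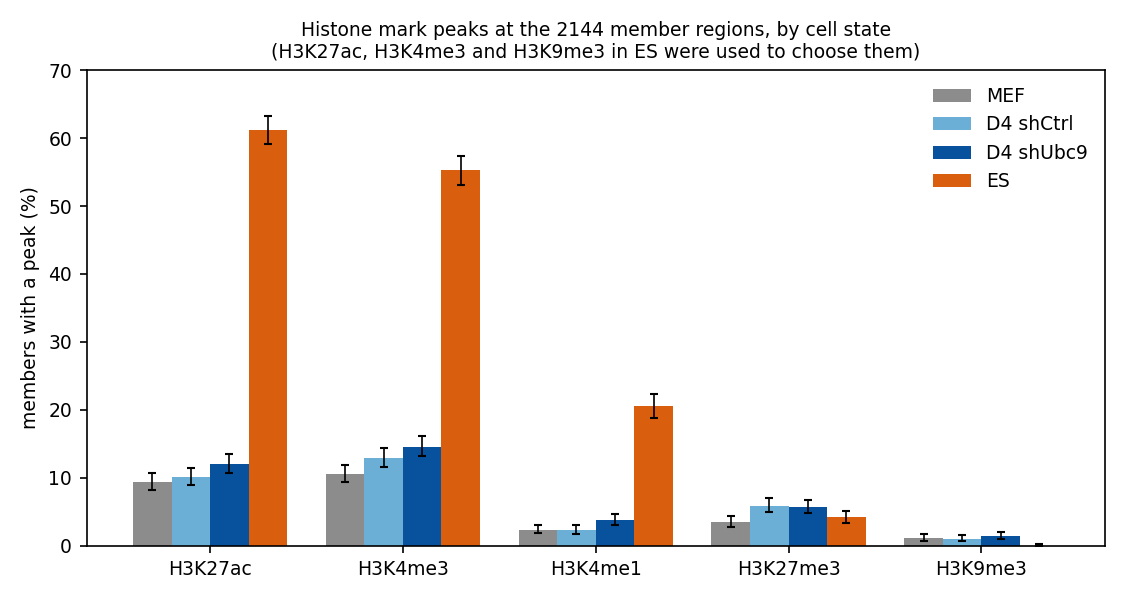
Share of the 2144 members with a peak of each histone mark (y axis, %) in MEF, D4 shCtrl, D4 shUbc9 and ES cells, with bars for the share and error bars for the Wilson 95% interval. H3K4me1 went from 2.38% in MEF to 20.5% in ES cells, while H3K27me3 stayed between 3.45% and 5.88%.

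The history of a member went with its marks in ES cells. Among members with H3K27ac alone, which included 355 of the 440 with H3K4me1 in ES cells, 4.48% (3.35% to 5.99%) were active in MEF. Among members with both marks 38.5% (33.6% to 43.7%) were, and among H3K4me3-only members 11.5% (9.54% to 13.9%). The H3K4me3-only class divided by the rank of its peak, since 28 of the 731 lower-ranked members (3.83%) and 68 of the 101 higher-ranked members (67.3%) were active in MEF. A factor lay on 12.6% and 74.3% of these groups at D4 shCtrl. At D4 shUbc9 the shares active were 6.78%, 47.9% and 18% in the order H3K27ac alone, both marks and H3K4me3 alone, beside 3.44%, 42.8% and 15.7% at D4 shCtrl. H3K4me1 in ES cells lay on 37.0% of H3K27ac-only members and on 0.601% of H3K4me3-only members.

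**Figure D3:**
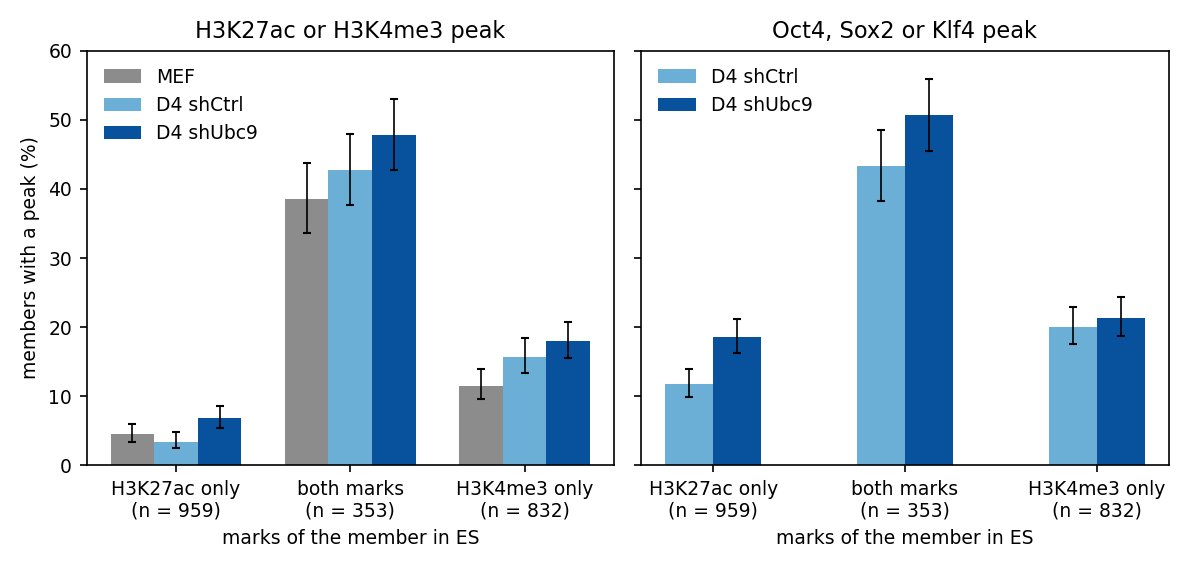
Share of members (y axis, %, with Wilson 95% intervals) active in MEF and at D4 (left) and with an Oct4, Sox2 or Klf4 peak at D4 (right), split by the active marks of the member in ES cells. Members with both marks stand highest in each state, at 38.5% active in MEF and 50.7% with a factor at D4 shUbc9.

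The D4 peak lists were then followed to ask where the reprogramming factors lay on these regions. At D4 shCtrl, Oct4 was at 203 members (9.47%, background 4.28%), Sox2 at 307 (14.3%, background 4.7%) and Klf4 at 297 (13.9%, background 5.73%). At least 1 factor lay on 433 members (20.2%, 18.6% to 21.9%, background 7.61%) and all 3 on 138 (6.44%, background 2.64%). The commonest single-factor pattern was Sox2 alone, at 103 members, followed by Klf4 alone at 78 and Oct4 alone at 16. Oct4 mostly lay together with another factor, since 16 of its 203 members held it alone. The shCtrl list of Oct4 was the shortest, at 16740 peaks beside 20197 for Sox2 and 34163 for Klf4. These patterns were not counted over all ES SUMO regions, and the part of list length in them was not tested. Factors lay on 205 of the 275 members active in MEF (74.5%, 69.1% to 79.3%), beside 68% of the 866 ES SUMO regions active in MEF, and on 228 of the 1869 inactive there (12.2%, 10.8% to 13.8%, background 3.78%).

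With the hairpin against Ubc9, more members held a factor. At D4 shUbc9, Oct4 was at 300 members (14.0%, background 6.08%), Sox2 at 411 (19.2%, background 6.61%) and Klf4 at 362 (16.9%, background 6.89%). At least 1 factor lay on 535 members (25%, 23.2% to 26.8%, background 9.47%) and all 3 on 214 (9.98%, background 4.06%). A factor was present in both conditions at 425 members, at D4 shUbc9 alone at 110 (5.13%), at D4 shCtrl alone at 8 (0.373%), and in neither at 1601. Over all 14515 ES SUMO regions these were 7.26% in both, 2.2% at D4 shUbc9 alone and 0.351% at D4 shCtrl alone.

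The factor lists themselves differed in length and in their lowest score. The shUbc9 list held 23477 Oct4 peaks against 16740, 27514 Sox2 peaks against 20197, and 37505 Klf4 peaks against 34163 at shCtrl, and its lowest score was the higher of the pair for each factor. With both lists cut to the length of the shorter, members with Oct4 numbered 203 and 244, with Sox2 307 and 353, and with Klf4 297 and 334 at shCtrl and shUbc9. With both lists cut at the higher of their lowest scores, they numbered 154 and 300, 278 and 411, and 271 and 362. The count was higher at shUbc9 for each factor in each of the 3 ways, but with lists of equal length the Wilson intervals of the pairs overlapped for every factor, as for Oct4 at 8.30% to 10.8% and 10.1% to 12.8%.

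**Figure D4:**
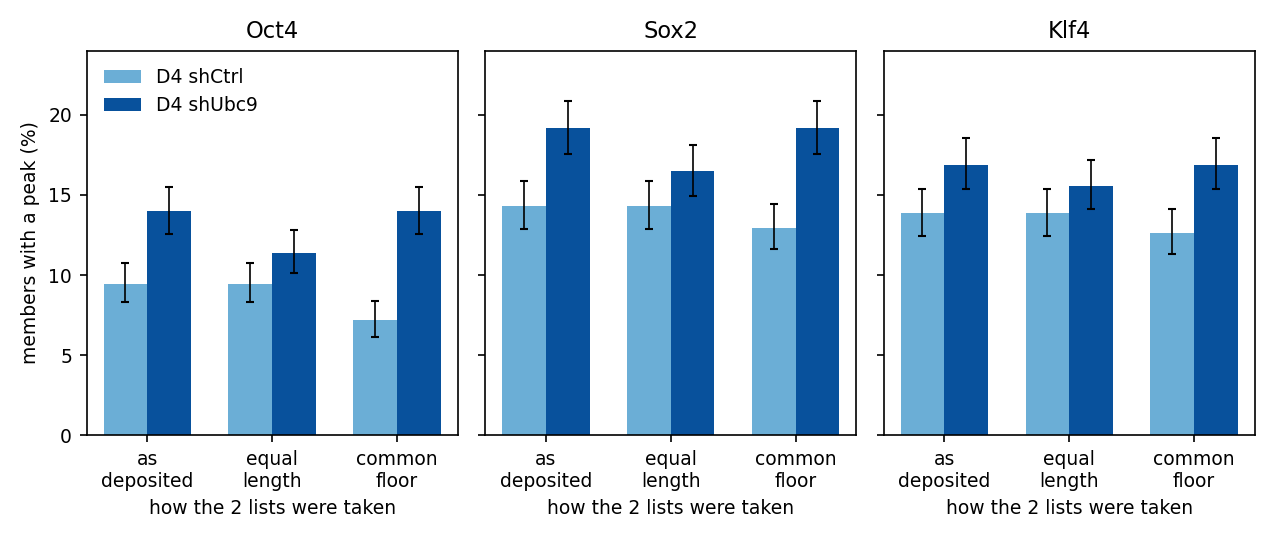
Share of the 2144 members (y axis, %, with Wilson 95% intervals) with an Oct4, Sox2 or Klf4 peak at D4 shCtrl and D4 shUbc9, with the lists as deposited, cut to equal length, or cut at a common lowest score. The shUbc9 bar is higher in every pair, and the gap is smallest with lists of equal length.

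The shares with a factor in both D4 conditions were also read by class of member. In H3K27ac-only members the share with a factor was 11.8% (9.89% to 14.0%) at shCtrl and 18.6% (16.2% to 21.1%) at shUbc9, with Sox2 at 58 and 120 members and Oct4 at 67 and 126. In H3K4me3-only members it was 20.1% (17.5% to 22.9%) and 21.4% (18.7% to 24.3%), with Sox2 at 137 and 154. With lists of equal length they were 11.8% and 16.5% in H3K27ac-only members, 43.3% and 47.3% in members with both marks, and 20.1% and 19.7% in H3K4me3-only members. The next shares were taken over whole ES active regions (merged H3K27ac and H3K4me3 peaks), not SUMO regions, with the lists as deposited. Those without SUMO went from 20.2% at shCtrl to 25.6% at shUbc9 with H3K27ac alone. They went from 76.3% to 78.6% with both marks and from 46.2% to 49.1% with H3K4me3 alone. Those that held a member went from 17.3% to 24.2%, 59.6% to 66.7% and 19.1% to 20.2% in that order. Of the 110 members with a factor at shUbc9 alone, 66 carried H3K27ac alone in ES cells, 30 both marks and 14 H3K4me3 alone, and 96 (87.3%) were inactive in MEF, as were 87.2% of all members. Those 110 held Oct4 in 55 cases, Sox2 in 54 and Klf4 in 60. Whether the classes differ in their response was not tested, since each share rests on 1 list.

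Named examples show the range. Both chr15:88538919-88539833 and chr7:87990446-87990968 had no active mark in MEF or at D4, and their 1 factor peak was listed at shUbc9 alone. At the first it was Oct4, of rank 56.6 in its list, and the region's H3K27ac peak in ES cells ranked at 99.7. At the second it was Klf4, of rank 3.14, close to the bottom of the list. At chr11:48640822-48641938, which held H3K4me3 in MEF, H3K27ac and Klf4 were listed at shUbc9 and not at shCtrl, with ranks of 45.2 and 8.21. The rarer opposite pattern is seen at chr3:68376334-68376942, where a Sox2 peak of rank 39.3 was listed at shCtrl and none at shUbc9. Its H3K4me3 peak, by contrast, was listed in both D4 conditions and not in MEF.

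New activity at D4 was rare and was more often listed with the hairpin against Ubc9. Of the 1869 members inactive in MEF, 68 had H3K27ac or H3K4me3 at D4 shCtrl (3.64%, background 1.19%) and 133 at D4 shUbc9 (7.12%, background 2.15%). Both conditions shared 59 of them, 9 were active at shCtrl alone and 74 at shUbc9 alone (3.96%, background 1.19%). Of the 74, 44 had H3K27ac and 35 had H3K4me3 at shUbc9. By ES marks, 33 (44.6%) were H3K27ac-only, 22 (29.7%) had both marks and 19 (25.7%) were H3K4me3-only. Among all members, active in MEF or not, these classes held 44.7%, 16.5% and 38.8%. The lowest score of the H3K4me3 list was 640 at shCtrl and 340 at shUbc9, and those lists held 16322 and 18698 peaks. With lists of equal length the share at shUbc9 was 5.94% and with a common lowest score 5.99%, against 3.64% at shCtrl in both. The H3K27ac lists had 25719 and 25849 peaks and the same lowest score of 360. In them 23 members inactive in MEF (1.23%) were marked at shCtrl and 61 (3.26%) at shUbc9. For H3K27ac alone the shares over all ES SUMO regions inactive in MEF were not taken. The difference is thus not shown to be particular to members.

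Of newly active members, 52 of 68 held a factor at shCtrl (76.5%) and 103 of 133 at shUbc9 (77.4%). These shares were near those of members already active in MEF (74.5% and 78.9%), and over all ES SUMO regions newly active they were 67.5% and 75.1%. Of members inactive in MEF, 52 of the 228 with a factor at shCtrl were active at shCtrl, and 16 of the 1641 without one. At shUbc9 it was 103 of 318 and 30 of 1551. In percent these were 22.8% and 0.975% at shCtrl and 32.4% and 1.93% at shUbc9, where all ES SUMO regions inactive in MEF gave 21.3% and 0.404%, and 28.6% and 0.567%. Of the 74 members active at shUbc9 alone, 49 held a factor in both conditions, 10 at shUbc9 alone, 1 at shCtrl alone and 14 in neither. A region new at D4 in both conditions was chr6:4697401-4698453, which held all 3 factors in each, with Sox2 at ranks 74.2 and 72.5, and H3K4me3 at ranks 27.5 and 39.5. Of the 275 members active in MEF, 246 (89.5%) were active in both D4 conditions and 23 (8.36%) in neither, beside 76% and 18.7% of all 866 ES SUMO regions active in MEF. One of these 23, chr19:9974805-9975575, held H3K4me3 in MEF and ES cells and no peak at D4, with SUMO folds of 20.19 and 20.13.

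A small group combined H3K4me3 with the Polycomb mark in ES cells, the pattern known as bivalent. H3K27me3 in ES cells lay on 89 members, each of which also held H3K4me3 there, 85 of them without H3K27ac. The rule required H3K27ac or H3K4me3, so the H3K4me3 of those 85 was fixed by the choice of members. Of the 89, 38 held H3K27me3 in MEF, 54 at D4 shCtrl and 53 at D4 shUbc9, and 30 were active in MEF. At D4 shCtrl 60 held Sox2, 19 Klf4 and 13 Oct4, or 67.4%, 21.3% and 14.6%, where all 184 ES SUMO regions with H3K27me3 gave 45.7%, 24.5% and 15.2%. The share with any factor was 76.4% at shCtrl and 75.3% at shUbc9. In the other direction, 80 of the 135 members with H3K27me3 in MEF or at D4 shCtrl had none in ES cells. Apart from the shares of single factors, the counts within the 89 and the 135 were not taken over all ES SUMO regions. They are thus not shown to be particular to members.

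At chr8:74217256-74217919, one of the 3 bivalent members of highest SUMO rank, H3K27me3 was listed in MEF, at D4 in both conditions and in ES cells, and Sox2 in both D4 conditions. At chr3:94216264-94217669 the H3K27me3 peak ranked at 89.3 in ES cells, and Oct4, Sox2 and Klf4 were listed in both D4 conditions, with Sox2 at ranks 84.0 and 87.9. The third, chr3:108742712-108743402, held no factor, and at D4 its 1 peak was H3K4me3 at shUbc9, of rank 14.1.

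The lists of siRNA-treated ES cells, which the rule had not used, gave a second view of H3K9me3. In siCtrl cells 151 members carried an H3K9me3 peak (7.04%, 6.03% to 8.21%, background 24.6%), although none did in the wild-type ES list. The siCtrl list held 21492 peaks and the wild-type list 8508, and the submitters' notes name a different aligner for the siRNA samples, so the depth and processing of these lists cannot be told apart from the treatment. In siUbc9 cells 121 members carried the mark (5.64%, 4.74% to 6.70%, background 12.6%). The rule had removed regions with H3K9me3 in wild-type ES cells, and both backgrounds keep such regions. The lower shares of members are thus not independent of the rule. Of the 151, 77 (51%) were also listed in siUbc9 cells, as were 46.2% of all 3573 ES SUMO regions with H3K9me3 in siCtrl cells. The list of siUbc9 cells held 18745 peaks. Its lowest score was 138, and that of the siCtrl list was 92. A peak scored under 138 could thus be listed in siCtrl cells alone, and a peak missing in siUbc9 cells is not shown to be a lost mark.

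These H3K9me3 members were mainly of the H3K4me3-only class. That class held 106 of the 151 in siCtrl cells and 109 of the 121 in siUbc9 cells, and 69 of its 106 were listed in both. In H3K27ac-only members 7 of 38 were listed in both. By the rank of the H3K4me3 peak, 104 of the 731 lower-ranked members (14.2%) and 2 of the 101 higher-ranked ones had H3K9me3 in siCtrl cells. Members with H3K9me3 in siCtrl cells were seldom active in MEF (3 of 151) or bound by a factor at D4 shCtrl (7 of 151), beside 272 and 426 of the other 1993. None of the 151 had H3K27me3 in ES cells, where the Wilson interval reaches 2.48%. The mark lay on 4.47% of the other 1993 members and on 1.27% of all ES SUMO regions. The latter share lies within that interval.

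Active regions of ES cells with and without SUMO were then compared. ES peaks of H3K27ac and H3K4me3 were merged, and 2122 merged regions without H3K9me3 held a member, beside 30745 with no SUMO peak in either cell type. Of the 2122, 36 also held a MEF SUMO peak outside the member. Their median widths were 1397 and 1422 bp, but within classes they differed, at 1800.5 and 1388.5 bp with H3K27ac alone, 3211 and 2255 bp with both marks, and 747 and 946 bp with H3K4me3 alone. Peak ranks differed too. H3K4me3 peaks that held a member had a median rank of 30.4, beside 50.7 for those with no SUMO peak in ES cells. For H3K27ac peaks the ranks were 58.7 and 49.4. Among H3K4me3-only members, 3.83% of the lower-ranked and 67.3% of the higher-ranked were active in MEF. The part of width and of peak rank in the differences within a class was not tested. Those with a member were active in MEF in 16.6% of cases (15.1% to 18.3%) and those without SUMO in 43.0% (42.4% to 43.5%). The order was the same in each class of ES marks, with 5.98% and 8.84% for H3K27ac alone, 50.4% and 78.1% for both marks, and 10.7% and 34.5% for H3K4me3 alone. It was also the same by width, with 2.98% and 17.7% up to 1000 bp, 19.5% and 46.8% from 1001 to 2000 bp, and 28.6% and 64.6% above 2000 bp. The rule excluded SUMO in MEF, and whether this choice bears on activity in MEF was not tested.

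Factors followed the same order at D4 over all regions, but not in every class inactive in MEF. Any factor lay on 26.4% of the regions with a member and 49.9% of those without SUMO at shCtrl, and on 31.1% and 53.3% at shUbc9. In the H3K27ac-only class that was inactive in MEF, the shares were 14.9% (12.6% to 17.5%) and 16.7% (15.8% to 17.6%) at shCtrl, and 22.0% (19.3% to 24.9%) and 22.4% (21.4% to 23.4%) at shUbc9, with overlapping intervals. With both marks and no activity in MEF, the shares were 29.5% (23.8% to 36.0%) and 28.6% (26.8% to 30.4%) at shCtrl, and 41.0% (34.5% to 47.7%) and 34.5% (32.6% to 36.4%) at shUbc9, again with overlapping intervals, at median widths of 3333 and 1979 bp. In the H3K4me3-only class inactive in MEF they were 11.3% and 28.7% at shCtrl, and 12.0% and 31.7% at shUbc9. The regions compared were not matched by the rank of their H3K4me3 peak. New activity in all regions inactive in MEF went from 3.96% to 8.76% with a member and from 12.1% to 18.1% without SUMO. Both groups of regions thus had a higher share at shUbc9, and the difference between the 2 groups in this was not tested. H3K9me3 in siCtrl ES cells lay on 7.07% and 1.84%, and H3K4me1 in ES cells on 25.4% and 17.5%.

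**Figure D5:**
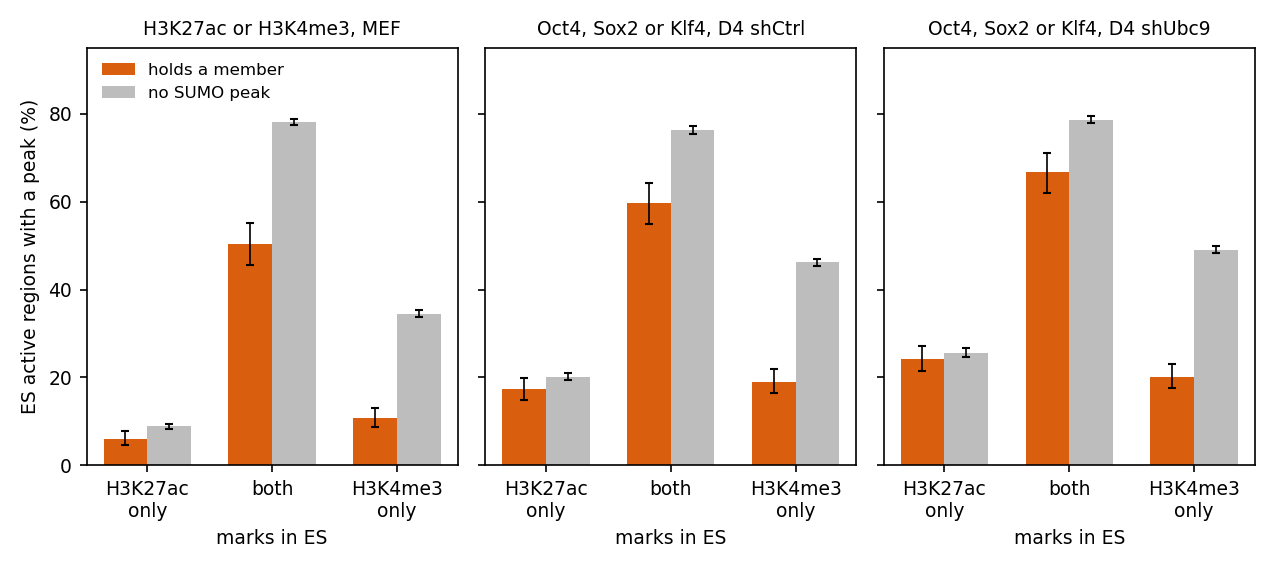
Share of merged ES active regions (y axis, %, with Wilson 95% intervals) with an active mark in MEF or a factor at D4 shCtrl or shUbc9, for regions that hold a member and regions with no SUMO peak, by their marks in ES cells. The regions without SUMO stand higher with both marks and with H3K4me3 alone, and the pairs lie close with H3K27ac alone.

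Beside the other SUMO regions, members lay between the extremes. Of the 418 active regions with SUMO in both cell types, 81.3% (77.3% to 84.8%) were active in MEF and 74.9% had a factor at D4 shCtrl, or 77.8% at D4 shUbc9. Of the 7925 regions with SUMO in ES cells alone and none of the 3 marks there, 1.12% were active in MEF, and 2.11% and 3.08% had a factor. Of the 3001 with H3K9me3 these were 1.57%, 2.83% and 5.07%. Members with SUMO-1 alone, with SUMO-2 alone and with both were alike in their shares active in MEF, at 13.8% (10.1% to 18.5%), 11.7% (9.36% to 14.5%) and 13.2% (11.4% to 15.1%), with overlapping intervals.

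Members were spread over the genome, with some in clusters. They numbered 46 to 150 on the autosomes and 24 on the X chromosome. The nearest other member was a median of 289906.5 bp away, and 28.9% of members had another within 100000 bp. The densest window of that size, chr3:34562594-34660602, held 5 members, all with H3K27ac and 4 with H3K4me3 in ES cells, and none of them active in MEF. Its last 3 members touched 1 H3K27ac peak of rank 99.3. Its first member, chr3:34562594-34563265, held H3K27me3 in MEF, H3K27me3 and Sox2 in both D4 conditions, and H3K4me3 at D4 shUbc9, of rank 0.858. The 2 widest members, chr8:63136034-63139759 and chr8:85681654-85685077, had H3K27ac and H3K4me1 in ES cells and no peak at D4 or in MEF.

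The edge of the rule was sharp for some criteria and not for others. The smallest overlap of a member with an active mark was 10 bp, 25 members overlapped it by under 100 bp, and 36 regions missed it by under 100 bp, the nearest by 6 bp. The nearest MEF SUMO peak to a member was 29 bp away, and 45 members had one under 1000 bp away. The 418 active regions left out for MEF SUMO overlapped it by at least 212 bp. The nearest H3K9me3 peak in ES cells was 1 bp away, 106 members had one under 1000 bp away, and the 528 regions left out for H3K9me3 overlapped it by at least 10 bp.

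RNA of the 3 mapped factors was read at D4 as well, in a comparison of shUbc9 with shCtrl that called 53.2% of the genes tested. Pou5f1, which encodes Oct4, was at 30.1, 26.8 and 38.4 CPM with shCtrl and 52.4, 55.9 and 43.3 CPM with shUbc9, and the groups did not overlap. It rose by 0.67 on the log2 scale, from 31.8 ± 5.95 to 50.5 ± 6.48 CPM (n = 3 each, edgeR adjusted p = 0.00295). Sox2 was at 25.5 ± 5.48 and 30.97 ± 5.03 CPM (log2 difference 0.29, edgeR adjusted p = 0.167), and Klf4 at 110.8 ± 14.7 and 96.6 ± 6.47 CPM (log2 difference -0.20, edgeR adjusted p = 0.119), with n = 3 in each group. Counts of these genes may include transcripts of the OKSM cassette, which cannot be told apart from those of the cell's own genes. Whether the higher Pou5f1 RNA has a part in the larger number of members with Oct4 at D4 shUbc9 was not tested.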

How the data were processed

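Per the file headers and values, each peak list gives a position, a score, a fold enrichment as a ratio, −log10 p-values and q-values, and a summit. The authors deposited 1 list per antibody and condition, merged over 2 replicates. On every line of the deposited lists the score equals 10 times the −log10 p-value, rounded down. RNA was deposited as a read count per gene (26301 genes). A further 799 repeat families, with 7.22% to 24.8% of counts, stayed out of library sizes and tests. Tools named in the submitters' processing notes are MACS2, Bowtie, Bowtie2, bedtools 2.19.1, featureCounts, DESeq2 and STAR 2.5.0a, and the build is mm9. The annotation and the peak-calling thresholds were not given in the sources used here.

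Repeated lines were removed. Overlaps used Python 3.11.15 and were checked with bedtools 2.31.1 for 28 lists. Genes passing filterByExpr (minimum count 10) were scaled by TMM and tested two-sided in edgeR 4.0.16 (R 4.3.3), with Benjamini-Hochberg adjustment over all genes and a threshold of 0.05. The libraries used held 25100000 to 56600000 counts in genes. Names came from a GRCm38 table that matched 24191 identifiers. The test was tried on simulated counts first, and DESeq2 1.42.0 was run beside it. All sample columns were matched. A planned RNA result is not reported here. Whether replicates are separate cultures or animals is not in the labels, so p-values measure the spread between these libraries, which may be technical. The members, marker lists and the named regions' rule (the highest mean SUMO rank in each class, the widest, and the densest window, with chromosome 18 left out) were chosen with earlier results of these data known. RNA of genes near members was left out for want of an mm9 annotation.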

Additional observations from a re-analysis of the deposited data

How the results depend on the processing

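Of 78 alternatives to the peak results, 50 stayed within the counting interval or, for the number of members, within 1.5 times. Some of the 50 could not move, because a cut to equal length or a common lowest score leaves a list of each pair whole. For example, 315 members were active at D4 shCtrl in the main result and with either cut of the D4 lists. The number of members was 447 with the higher-scoring 50% of every list, 1275 with both SUMO proteins required, and 1299 with H3K27ac and H3K4me3 cut at a common lowest score, an alternative chosen after seeing the data. For MEF, D4 shCtrl and D4 shUbc9 in turn, the share active was 11.3%, 13.1% and 16.3% at an overlap of 50% of the shorter interval, 15.9%, 17.7% and 20.1% with the higher-scoring 50%, and 18.2%, 22.6% and 25.7% with the common lowest score. The share with a factor was 24.4% and 28.4% at shCtrl and shUbc9 with the higher-scoring 50%, and 22.8% at shUbc9 with lists of equal length. H3K4me1 lay on 17.2% (overlap of 50%), 22.8% (higher-scoring 50%) and 18% (both SUMO proteins). H3K27me3 lay on 2.67% (overlap of 50%) and 1.79% (higher-scoring 50%). H3K9me3 lay on 1.34% in siCtrl and 0.224% in siUbc9 ES cells with the higher-scoring 50%, and on 4.27% in siUbc9 with an overlap of 50%. The cause of these shifts was not tested. Of members inactive in MEF, the share newly active was 6.12% and 9.88% at shCtrl and shUbc9 with the common lowest score in all states, and 5.59% at shUbc9 with the higher-scoring 50%. The common lowest score at D4 alone was also chosen after seeing the data.

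Without any 1 library, the log2 change at D4 ranged for Pou5f1 from 0.56 to 0.83, for Sox2 from 0.11 to 0.38 and for Klf4 from -0.29 to -0.10. Klf4 passed the threshold without D4 shCtrl replicate 2 (edgeR adjusted p = 0.0157), and Sox2 passed with library sizes alone (log2 difference 0.37, edgeR adjusted p = 0.034). The cause was not tested. With a replicate block the log2 changes were 0.68 for Pou5f1, 0.29 for Sox2 and -0.19 for Klf4, and no call changed. Same-numbered libraries share only a number, since their deviations correlated at -0.368 to -0.002, and 0 of 6 libraries lay closest to their own number. The block moved the genes called from 9051 to 7497. Peak lists allow no paired analysis, because each merges its replicates.

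Depth per peak is unknown, so that a missing peak is not shown to be a missing mark.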
